A study of Mus musculus with 6 samples.

Results

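Axon guidance cues and their receptors are the genes described here: semaphorins with plexins and neuropilins, netrins with Unc5 receptors, Slits with Robo receptors, and ephrins with Eph receptors. They were taken by gene symbol alone, and 61 of the 22956 genes in the table carried a symbol of these 9 families. Of the 61 genes, 33 encode ligands and 28 encode receptors. These molecules were first described as signals that attract or repel growing nerve fibres. They act in the same way at the surface of vascular cells, where binding of a ligand to its receptor changes the actin cytoskeleton, adhesion and migration through small GTPases. In the artery wall they are best known for endothelial branching, for marking arterial against venous identity, and for guiding sympathetic nerves to smooth muscle.

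The 6 RNA-seq libraries come from C57B6 mice aged 30 weeks that had been fed western diet for 20 weeks, and the labels give smooth muscle cell as the cell type and aorta as the tissue. In 3 samples (miR-21 knockout) the genotype was miR-21fl/fl with mTmG and Myh11ERT2, and in the other 3 (WT) it was WT with the same mTmG and Myh11ERT2 alleles. Myh11ERT2 is an inducible Cre driven by the Myh11 promoter, so that deletion is limited to cells that express this smooth muscle gene, and mTmG is a colour reporter of Cre activity that both genotypes share. miR-21 is a microRNA that represses messages through seed matches, mostly in the 3′ untranslated region (UTR), and the comparison asks which messages differ when smooth muscle lacks it. The labels do not say how cells were taken from the aorta or whether replicates were separate animals, so the spread behind each p-value is that of these samples alone and may be technical.

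Library totals were 37787465 to 72277179 estimated counts in the knockout and 37996254 to 154384307 in WT. The targeted microRNA was not analysed here, and its host transcript Vmp1 had a log2 fold change of -0.03 ± 0.16 (SE), which checks nothing about the loss of the microRNA. Smooth muscle markers were abundant: the 12 contractile genes summed to 33481 to 43781 CPM (estimated counts scaled to a common library size with TMM factors) in the knockout and 28277 to 42017 CPM in WT. Of these 12 genes, 11 had a log2 fold change above 0 and 1 below, with 1 higher at an unadjusted edgeR p under 0.05. The 11 adventitial fibroblast markers, 10 with a log2 fold change below 0 and 1 above and 0 at an unadjusted edgeR p under 0.05, summed to 13087, 5454 and 6169 CPM in knockout 1, 2 and 3 and to 13352, 7584 and 12260 CPM in WT 1, 2 and 3. The 10 macrophage markers summed to 30.3, 18.2 and 6.45 CPM in the knockout and to 30.4, 7.81 and 10.7 CPM in WT, again highest in knockout 1 and WT 1. Endothelial markers (11 of 11 in the table) summed to 131 to 152 CPM in the knockout and 136 to 151 CPM in WT, nearly all of it from Pecam1, Esam and Erg, while Cdh5, Kdr and Cldn5 stayed under 1 CPM in every library. The 7 Schwann cell markers in the table summed to 4.28 to 14.0 CPM in the knockout and 7.31 to 10.2 CPM in WT, with Sox10 under 1 CPM. The 5 neuron markers summed to 5.10 to 13.4 CPM in the knockout and 10.2 to 20.1 CPM in WT, with Snap25, Th, Prph and Stmn2 under 1 CPM, so that Tubb3 made up most of the sum. All 7 lymphocyte markers stayed under 1 CPM. The 4 cardiac markers in the table summed to 18.6 to 43 CPM in the knockout and 21.3 to 36.8 CPM in WT, and of 2 adipocyte markers Ucp1 stayed under 1 CPM and Plin4 had 213 to 247 CPM in the knockout and 172 to 195 CPM in WT.

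The most abundant guidance messages of these samples encoded secreted cues. Levels were compared between genes as CPM per kb of exon, averaged over the 6 libraries. By this measure 10 of the 61 genes lay above 10 CPM per kb, 25 between 1 and 10, 16 between 0.1 and 1, and 10 at or under 0.1. Sema3c, a secreted class 3 semaphorin, averaged 57.9 CPM per kb with a range of 46.7 to 66.8 over the libraries. Ntn1 (netrin-1) averaged 57.8 CPM per kb with a range of 54.1 to 63.2, and Slit3 averaged 49.4 with a range of 41.2 to 59.1, so the order of these 3 genes lies within their spread. Sema3f followed at 37.5, Ntn4 at 29.7, Plxnb2 at 27.5, Sema3d at 22.8, Efna5 at 19.3, Sema3b at 14.4 and Efnb2 at 11.8 CPM per kb. Plxnb2 was the only receptor among these 10 genes, and the other 9 encode ligands, of which the ephrins Efna5 and Efnb2 stay on the membrane. Neighbours in this order overlapped in their ranges, except that every library's value of Efna5 (16.9 or more) lay above every value of Sema3b (15.6 or less).

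**Figure D1:**
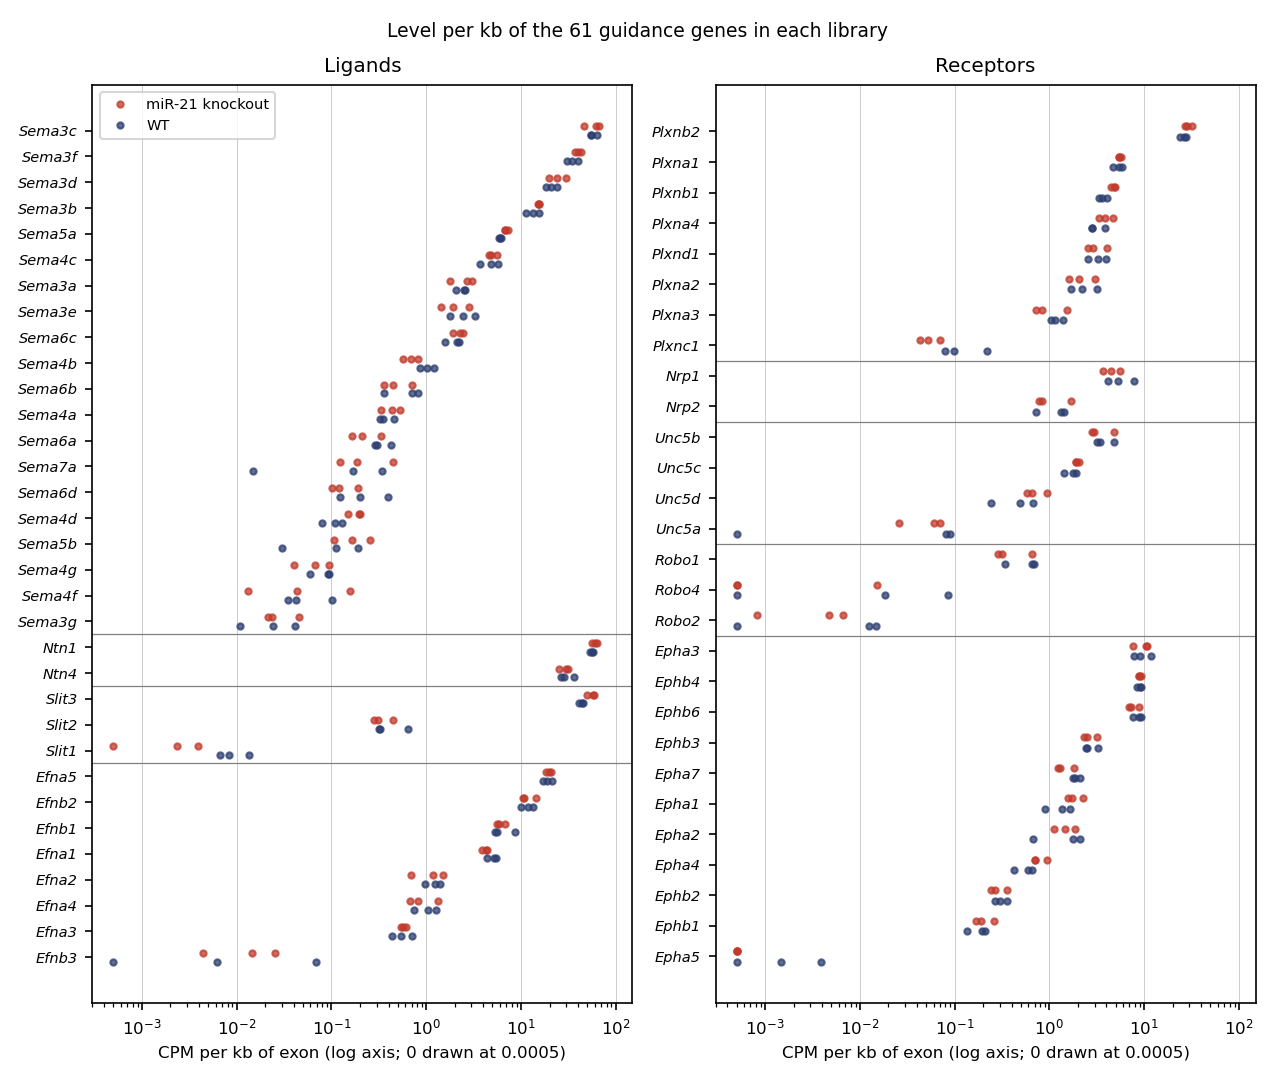
CPM per kb of exon (log axis) of the 61 guidance genes, ligands on the left and receptors on the right, with 1 point per library, knockout drawn above WT in each row and grey lines between families. Values of 0 are drawn at the left edge, at the position the axis label gives. Sema3c, Ntn1 and Slit3 lie furthest right, and Plxnb2 is the only receptor whose mean exceeds 10 CPM per kb.

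Each family was dominated by few members. Slit3 held 99.2% of the summed level per kb of its 3-gene family, Robo1 94.9% of the Robo genes, Nrp1 81.9% of the neuropilins, Ntn1 66.1% of the netrins, Unc5b 59.5% of the Unc5 genes and Plxnb2 58.0% of the plexins. The ephrins were led by Efna5 with 43.1%, the semaphorins by Sema3c with 37.7% and the Eph receptors by Epha3 with 27.3%. Gene length bears on these levels. Per kb of the principal transcript, Unc5b and Unc5c lay close together at 3.89 and 3.64 CPM. In mean CPM without length Unc5c was the higher, 37.5 in the knockout and 32.7 in WT against 21.9 and 23.7 for Unc5b. Counted over the principal transcript alone, 13 genes lay above 10 CPM per kb, the further 3 being Epha3 (14.8), Nrp1 (14.0, against 5.14 over all exons) and Sema5a (11.2, against 6.5).

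At the low end, 7 of the 61 genes did not pass the filter on low counts and were not tested. These were Slit1, Robo2, Robo4, Efnb3, Epha5, Sema3g and Sema4f, and none of them exceeded 0.831 CPM in any library. Robo4 is a receptor of endothelial cells. It had 0.0804, 0 and 0 CPM in knockout 1, 2 and 3 and 0.448, 0 and 0.0974 CPM in WT 1, 2 and 3. The endothelial markers Cdh5 and Kdr were also under 1 CPM, whereas Pecam1, Esam and Erg of the same list were far higher. Epha5 was at 0 in all 3 knockout libraries and in WT 1, and had 0.0245 CPM in WT 2. It reached 0.0649 CPM, or 10 estimated counts, in WT 3, the library with the largest total.

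No guidance gene passed the test for a difference between genotypes. In edgeR's quasi-likelihood fit of all 16654 genes that passed the filter, 0 genes (0%) had a Benjamini-Hochberg adjusted p under 0.05, so 0 of the 54 guidance genes tested did, with a smallest adjusted p of 0.741. At an unadjusted p under 0.05, 4 guidance genes were higher in the knockout (Slit3, Plxnb1, Sema5a and Sema4d) and 3 were lower (Sema4b, Plxnc1 and Epha7). The same counts over all genes tested were 658 higher (3.95%) and 335 lower (2.01%). DESeq2's Wald test called 73 of 16324 genes (0.447%), among them 1 guidance gene, Slit3. The knockout values lay all above the WT values for 5 guidance genes and all below for 3, against 6.48% and 5.6% of all genes tested. The fitted log2 fold changes, knockout over WT, ran from -1.26 to 0.77 with a median of 0.009, beside a median of -0.002 over all genes, and 28 were above 0 and 26 below. In these samples, fewer cells of a type and less RNA per cell cannot be told apart. The count of lower genes at an unadjusted p under 0.05 was 0 without knockout 2 and 0 without knockout 3, 7 without knockout 1 and 1 without WT 1, and the count of higher genes was 10 without WT 2. With knockout 1 and WT 1 both left out, 4 were higher and 6 lower. The share of all genes was not counted under each of these settings, so these counts have no background beside them.

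**Figure D2:**
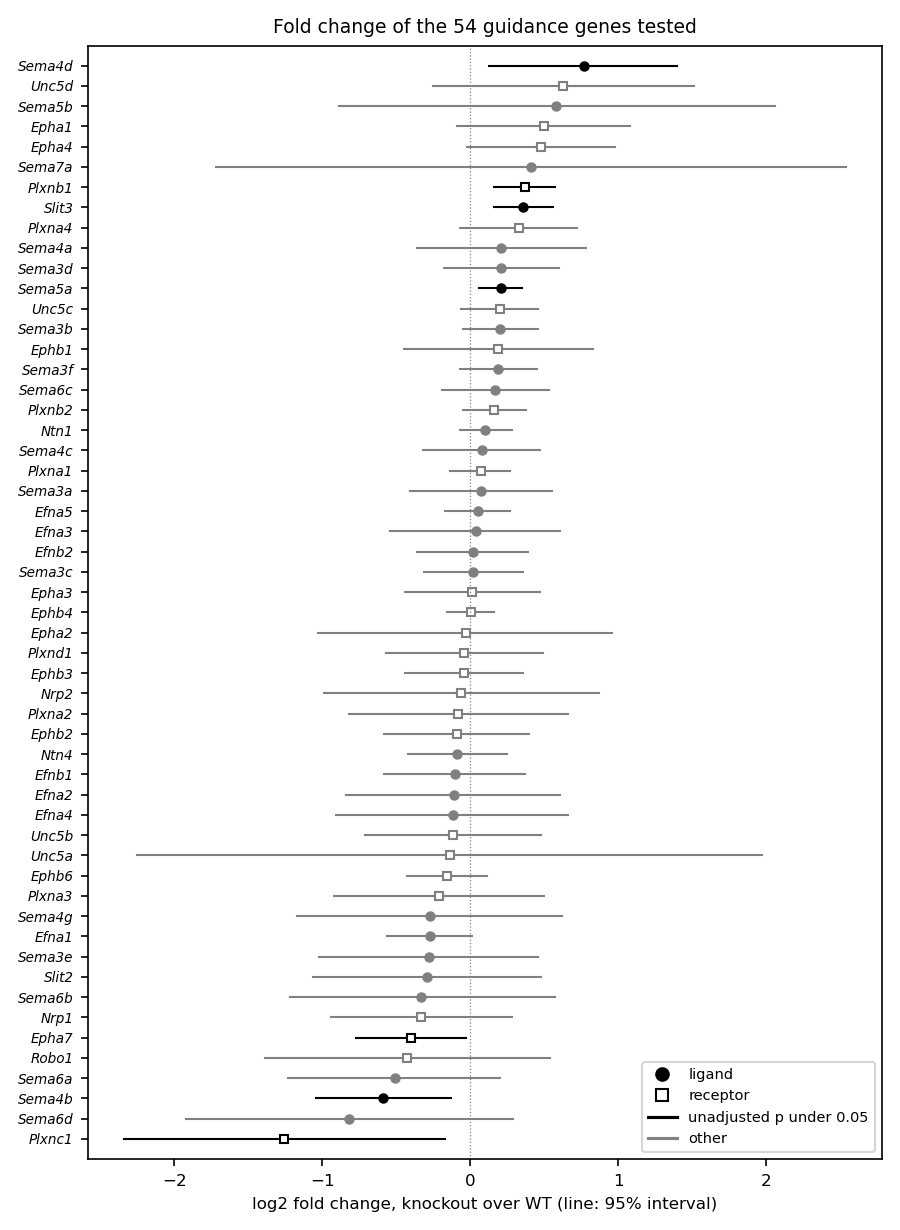
Fitted log2 fold changes, knockout over WT, of the 54 guidance genes tested, with their 95% intervals as lines; filled circles are ligands, open squares receptors, and black marks an unadjusted p under 0.05. The 7 black genes are Sema4d, Plxnb1, Slit3 and Sema5a on the higher side and Epha7, Sema4b and Plxnc1 on the lower, and the widest intervals belong to genes of low count such as Sema7a and Unc5a.

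Slits are secreted repellents that bind Robo receptors, and Slit3 was the guidance gene that DESeq2 called. Slit3 (chr11:35121224-35708508, mm10, plus strand) had 358, 304 and 348 CPM in knockout 1, 2 and 3 and 250.2, 272 and 265 CPM in WT 1, 2 and 3. Every knockout library lay above every WT library. The gap between the lowest knockout and the highest WT value was wider than the range of the WT libraries. It was narrower than the range of the knockout libraries. Slit3 averaged 337 ± 28.8 CPM in the knockout and 262 ± 11.1 CPM in WT (SD, n = 3 each). The log2 fold change was 0.36 ± 0.09 (SE), for which edgeR gave an adjusted p of 0.750 and an unadjusted p of 0.00418, and DESeq2 gave an adjusted p of 0.0307. Leaving out each library in turn, the log2 fold change of Slit3 lay between 0.31 and 0.43, with edgeR unadjusted p between 0.00196 and 0.0193. With knockout 1 and WT 1 both left out it was 0.28.

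The second Slit gene with measurable counts did not follow Slit3. Slit2 had 11.3, 7.23 and 7.90 CPM in the knockout and 16.2, 8 and 8.25 CPM in WT, a log2 fold change of -0.29 ± 0.32 (SE). WT 1 stood apart from the other 5 libraries, and the value was 0.12 without it and -0.51 without knockout 1. Robo1, the most abundant of the Robo genes, had 10.8, 5.26 and 4.74 CPM in the knockout and 11.4, 5.57 and 10.8 CPM in WT. Its libraries fell into 3 high ones (knockout 1, WT 1 and WT 3) and 3 low ones, the split of the fibroblast markers, whose part in the result was not tested. The log2 fold change of Robo1 was -0.43 ± 0.40 (SE) and -0.90 without knockout 1. Per kb, Robo1 averaged 0.490 CPM against 49.4 for Slit3, so Slit3 lay far above each of the Robo genes. Dystroglycan (Dag1), a laminin receptor that also binds Slits, had 863, 895 and 829 CPM in the knockout and 743, 785 and 748 CPM in WT, with no overlap and a log2 fold change of 0.18 ± 0.08 (SE, edgeR adjusted p = 0.833, unadjusted p = 0.0521). Dag1 averaged 127 CPM per kb, above Slit3, and was picked for the text after its values were seen.

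**Figure D3:**
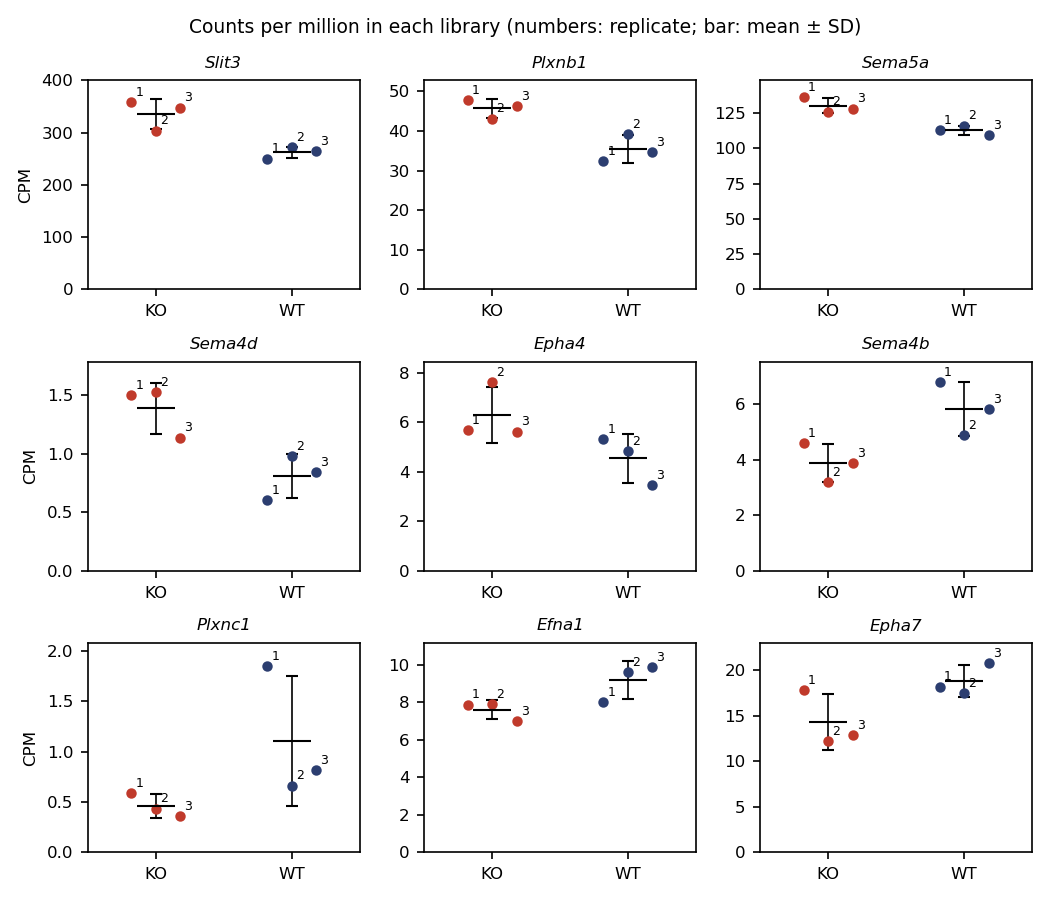
CPM in each library for the 8 genes tested whose genotypes did not overlap and for Epha7, knockout on the left and WT on the right; points are libraries with their replicate numbers, and bars give the mean ± SD (n = 3 each). Slit3, Plxnb1, Sema5a, Sema4d and Epha4 lie higher in every knockout library, and Sema4b, Plxnc1 and Efna1 lie lower.

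Semaphorins are secreted or membrane-bound ligands, most of which bind plexins. Of 20 semaphorin genes 18 were tested, 12 with a log2 fold change above 0 and 6 below, and 2 were higher and 1 lower at an unadjusted p under 0.05. Sema5a, a transmembrane semaphorin with thrombospondin repeats (chr15:32244810-32696342, plus strand), had 136, 126 and 128 CPM in knockout 1, 2 and 3 and 113, 116 and 109.5 CPM in WT 1, 2 and 3. The genotypes did not overlap and the libraries of each lay close together. Its log2 fold change was 0.21 ± 0.06 (SE, edgeR adjusted p = 0.780, unadjusted p = 0.0115), the smallest standard error among the 7 genes at an unadjusted p under 0.05, and it stayed between 0.17 and 0.23 when each library was left out. Sema4d, a transmembrane ligand of the B-type plexins that is best known from lymphocytes, had 1.5, 1.53 and 1.14 CPM in the knockout and 0.606, 0.982 and 0.844 CPM in WT. Its log2 fold change was 0.77 ± 0.27 (SE, edgeR adjusted p = 0.800, unadjusted p = 0.0241) and 0.61 to 0.91 without single libraries. Its libraries held only 23 to 130 estimated counts, and the lymphocyte markers summed to 0.167 to 0.320 CPM in the knockout and 0.0982 to 0.686 CPM in WT. Sema4b, a transmembrane semaphorin of the same class, went the other way. It had 4.59, 3.20 and 3.87 CPM in the knockout and 6.80, 4.88 and 5.82 CPM in WT, all knockout values below all WT values, with a log2 fold change of -0.59 ± 0.19 (SE, edgeR adjusted p = 0.793, unadjusted p = 0.0181).

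The abundant class 3 semaphorins, which signal through neuropilin and plexin complexes, did not separate by genotype. Sema3c had 334, 477 and 440.1 CPM in the knockout and 387, 451 and 392 CPM in WT, a log2 fold change of 0.02 ± 0.14 (SE) with a 95% interval of -0.31 to 0.36. Sema3f, a ligand that favours neuropilin-2, had 192, 207 and 223 CPM in the knockout and 159.7, 207 and 180.1 CPM in WT (log2 fold change 0.19, interval -0.07 to 0.45). The ranges of both genotypes overlapped for each of them. Sema3d had 169.6, 255 and 206 CPM in the knockout and 159, 207 and 179 CPM in WT (0.21, interval -0.18 to 0.60). Sema3b had 74.0, 72.2 and 74.4 CPM in the knockout and 53.9, 73.4 and 64.0 CPM in WT (0.20, interval -0.05 to 0.46). For Sema3f, Sema3d and Sema3b the lowest of the 6 libraries was WT 1, which also had the lowest sum of contractile markers, and a part of either in the other was not tested. Without WT 1 the log2 fold changes of Sema3f and Sema3b were both 0.10, and without WT 2 they were 0.28 and 0.31. Sema3d was at 0.05 without knockout 2 and at 0.34 without knockout 1. The other 11 tested semaphorins lay at or below 4.88 CPM per kb, none with an unadjusted p under 0.05.

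Plexins are the receptors of semaphorins. All 8 plexin genes of the table were tested, 4 with a log2 fold change above 0 and 4 below. Plxnb1, a receptor of Sema4d that activates RhoA (chr9:109095389-109119918, plus strand), had 47.8, 43.1 and 46.3 CPM in knockout 1, 2 and 3 and 32.4, 39.2 and 34.6 CPM in WT 1, 2 and 3. No library of one genotype entered the range of the other. Plxnb1 averaged 45.7 ± 2.39 CPM in the knockout and 35.4 ± 3.50 CPM in WT (SD, n = 3 each). The log2 fold change was 0.37 ± 0.09 (SE), for which edgeR gave an adjusted p of 0.741 and an unadjusted p of 0.00375, and DESeq2 gave an adjusted p of 0.105. It lay between 0.31 and 0.44 when each library was left out, and at 0.28 with knockout 1 and WT 1 both left out. An antisense gene shares 2.7% of the exon bases of Plxnb1, and whether counting used strand is not given in the sources used here. Plxnb2, the most abundant plexin, had 244, 209 and 220.1 CPM in the knockout and 212, 184 and 205 CPM in WT, overlapping ranges with a log2 fold change of 0.16 (interval -0.05 to 0.38).

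Plxnc1, the receptor of Sema7a, was the gene with the largest fitted fold change of the set, at a low level. It had 0.590, 0.435 and 0.362 CPM in the knockout and 1.85, 0.663 and 0.818 CPM in WT, a log2 fold change of -1.26 ± 0.46 (SE, edgeR adjusted p = 0.830, unadjusted p = 0.0287). The knockout libraries all lay below WT, but WT 1 stood apart, and the value was -0.71 without WT 1 and -1.52 without WT 2. Plxna1, whose exons share 10.7% of their bases with an antisense gene, had 52.1, 49.5 and 48.7 CPM in the knockout and 52.6, 42.5 and 48.6 CPM in WT (log2 fold change 0.07, interval -0.14 to 0.27). The neuropilins, co-receptors for class 3 semaphorins and for VEGF, overlapped between genotypes. Nrp1 had 54.2, 36.0 and 43.7 CPM in the knockout and 75.6, 40.7 and 51.8 CPM in WT, highest in WT 1 and next in knockout 1. Its log2 fold change was -0.33 ± 0.25 (SE) and -0.05 without WT 1. Nrp2 had 20.2, 10 and 9.28 CPM in the knockout and 15.7, 8.54 and 16.7 CPM in WT, high in knockout 1, WT 1 and WT 3, with a log2 fold change of -0.06 ± 0.38 (SE) and -0.51 without knockout 1.

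Netrins are laminin-like secreted cues with receptors of the Unc5 family, of which Unc5b is the vascular one, and of the DCC family. Ntn1 had 397, 355 and 376 CPM in the knockout and 349, 339 and 361 CPM in WT, ranges that overlapped slightly, at a log2 fold change of 0.10 ± 0.07 (SE; interval -0.07 to 0.28). Ntn4 had 117, 93.4 and 113 CPM in the knockout and 137, 99.3 and 107 CPM in WT (log2 fold change -0.09, interval -0.42 to 0.25). Neither netrin separated by genotype. Unc5b had 29.8, 17.7 and 18.3 CPM in the knockout and 29.9, 20.1 and 21.2 CPM in WT, high in both libraries numbered 1, with a log2 fold change of -0.12 ± 0.25 (SE) and -0.40 without knockout 1. Unc5c had 36.3, 39.3 and 36.9 CPM in the knockout and 27.5, 36.6 and 34.0 CPM in WT, a log2 fold change of 0.20 ± 0.11 (SE), 0.09 without WT 1 and 0.28 without WT 2. The ranges overlapped slightly, knockout 1 lying just below WT 2. Neogenin (Neo1), a netrin receptor of the DCC family, averaged 28.2 CPM per kb, above the 3.65 of Unc5b and the 1.83 of Unc5c, and had a log2 fold change of 0.07 ± 0.08 (SE). Neo1 was chosen after its values were seen, and Dcc was not analysed here.

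Ephrins and Eph receptors are both membrane proteins and signal between touching cells, with A ephrins held by a lipid anchor and B ephrins spanning the membrane. Of 8 ephrin genes 7 were tested, 3 with a log2 fold change above 0 and 4 below. Efna5 had 74.4, 78.8 and 84.3 CPM in the knockout and 68.3, 75.8 and 85.2 CPM in WT (log2 fold change 0.05, interval -0.17 to 0.27). Efnb2, a marker of arterial endothelium that smooth muscle also makes, had 98.8, 74.3 and 71.6 CPM in the knockout and 82.2, 91.5 and 68.4 CPM in WT (0.02, interval -0.36 to 0.39). For both of these ephrins the ranges of the genotypes overlapped. Efna1, an A ephrin that is known to be induced by TNF in endothelium, had 7.88, 7.92 and 7.02 CPM in the knockout and 8.02, 9.60 and 9.90 CPM in WT. Its knockout values all lay below the WT values, knockout 2 and WT 1 nearly touching, with a log2 fold change of -0.27 ± 0.12 (SE, edgeR adjusted p = 0.835, unadjusted p = 0.0586).

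Of 11 Eph receptor genes 10 were tested, 5 with a log2 fold change above 0 and 5 below. Epha3 had 91.5, 66.6 and 94.1 CPM in the knockout and 78.8, 68.1 and 103 CPM in WT (log2 fold change 0.01, interval -0.44 to 0.47). Ephb4, the partner of Efnb2 that marks veins, had 43.3, 40.6 and 40.6 CPM in the knockout and 38.6, 43.4 and 42 CPM in WT. The log2 fold change of Ephb4 was 0.0037 with an interval of -0.16 to 0.16, the narrowest interval among the Eph receptors. Ephb6, a receptor without kinase activity, had 32.9, 27.6 and 26.0 CPM in the knockout and 34.6, 28.6 and 33.3 CPM in WT (-0.16, interval -0.43 to 0.11). Ephb3 had 16.5, 21.3 and 15.5 CPM in the knockout and 16.1, 16.6 and 21.9 CPM in WT (-0.04, interval -0.44 to 0.36). None of these abundant receptors separated by genotype.

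A pair of less abundant EphA receptors lay on opposite sides. Epha7 had 17.8, 12.2 and 12.9 CPM in the knockout and 18.2, 17.5 and 20.8 CPM in WT, with knockout 1 inside the WT range. Its log2 fold change was -0.40 ± 0.16 (SE, edgeR adjusted p = 0.830, unadjusted p = 0.0366), -0.59 without knockout 1 and -0.30 without knockout 2. Epha4, which can bind both A and B ephrins, had 5.69, 7.62 and 5.62 CPM in the knockout and 5.33, 4.84 and 3.45 CPM in WT. All knockout libraries lay above WT, with a log2 fold change of 0.48 ± 0.21 (SE, edgeR adjusted p = 0.835, unadjusted p = 0.0568) and 0.31 without WT 3. The difference between the fold changes of Epha7 and Epha4 was not tested.

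Sites for miR-21 were looked up because messages that pair with its seed are those the microRNA can act on directly. The mature miR-21a-5p (RefSeq, GRCm38.p6, chr11:86584120-86584141, minus strand) is shown first with its seed, bases 2 to 8, in capitals. Under it stand the sites of the 6 guidance genes whose annotated 3′ UTR holds ATAAGCT, with the match in capitals and an additional A in capitals where the longer site ATAAGCTA is present. All are written 5′ to 3′ on the strand of the message.
mmu-miR-21a-5p: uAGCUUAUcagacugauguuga
Epha4: ccatttatATAAGCTAtaacat
Plxna2: agactcatATAAGCTAtcacac
Sema5a: tgccttttATAAGCTAtgtgct
Slit2: aaaagtatATAAGCTAtaaaaa
Sema3e: cactgatgATAAGCTctgaga
Sema4a: aaaaagatATAAGCTttaaag

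In GENCODE M21 coordinates (GRCm38, the assembly of mm10) these windows are chr1:77368250-77368271 on the minus strand for Epha4, chr1:194812189-194812210 on the plus strand for Plxna2, chr15:32694644-32694665 on the plus strand for Sema5a and chr5:48307382-48307403 on the plus strand for Slit2. The shorter sites lie at chr5:14256510-14256530 on the plus strand for Sema3e and at chr3:88435962-88435982 on the minus strand for Sema4a. Of the 54 guidance genes tested, 6 (11.1%) held ATAAGCT and 4 (7.41%) the longer site, beside 967 (7.31%) and 287 (2.17%) of the 13223 genes tested that have an annotated 3′ UTR. The median 3′ UTR of the guidance genes was also longer, 1432 bases against 1055. Only the message strand was searched, and a match is a description that says nothing of whether the site is used.

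The 6 genes with a site did not share a direction. Of the 6, 3 had a log2 fold change above 0, beside 610 of the 967 genes tested that hold ATAAGCT. For the longer site the counts were 2 of 4 guidance genes, beside 206 of 287 genes. Sema3e and Sema4a, which hold the shorter site, were chosen for the text after their values were seen. Of the 4 with the longer site, Sema5a and Epha4 were those given above whose knockout libraries all lay higher, with log2 fold changes of 0.21 and 0.48. Plxna2, a receptor of class 3 and class 6 semaphorins, had 52.1, 27.6 and 35.1 CPM in the knockout and 54.4, 29.1 and 37.6 CPM in WT, a log2 fold change of -0.08 ± 0.31 (SE). Slit2 was at -0.29. Both Plxna2 and Slit2 were highest in knockout 1 and WT 1. Their values were 0.19 and 0.12 without WT 1, and -0.37 and -0.51 without knockout 1. With knockout 1 and WT 1 both left out they were -0.09 and -0.1. Sema3e, a ligand of plexin D1, had 17.8, 13.3 and 26.0 CPM in the knockout and 30.2, 16.4 and 22.9 CPM in WT (log2 fold change -0.28 ± 0.31, SE). Sema4a had 2.84, 2.33 and 1.82 CPM in the knockout and 2.45, 1.87 and 1.75 CPM in WT (0.21 ± 0.24, SE). The median log2 fold change was 0.064 for the 6 genes and 0.009 for the 48 guidance genes without a site, beside 0.051 and -0.006 over all genes with and without one. For the longer site the median was 0.064 for the 4 genes, beside 0.093 and -0.004 over all genes with and without it. Slit3 and Plxnb1, which had the smallest p of the set, hold no ATAAGCT in the annotated 3′ UTR.

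Several guidance genes differed between libraries along a line that is not the genotype. In 14 of the 54 genes tested, knockout 1 and WT 1 both lay above the other 4 libraries, and in 6 both lay below, beside 12.9% and 13.3% of all genes tested. The receptors among the 14 are Nrp1, Robo1, Unc5b, Plxna1, Plxna2, Plxna3, Plxnd1, Epha2 and Ephb2. The ligands among the 14 are Efnb1, Ntn4, Sema4a, Sema6a and Slit2. The 6 are the ligands Efna5, Sema3a, Sema3c, Sema3d, Sema4c and Sema6c. Knockout 1 and WT 1 are also the libraries with the highest sums of fibroblast and macrophage markers and the lowest sums of contractile markers, and the part of these in the guidance genes was not tested.

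**Figure D4:**
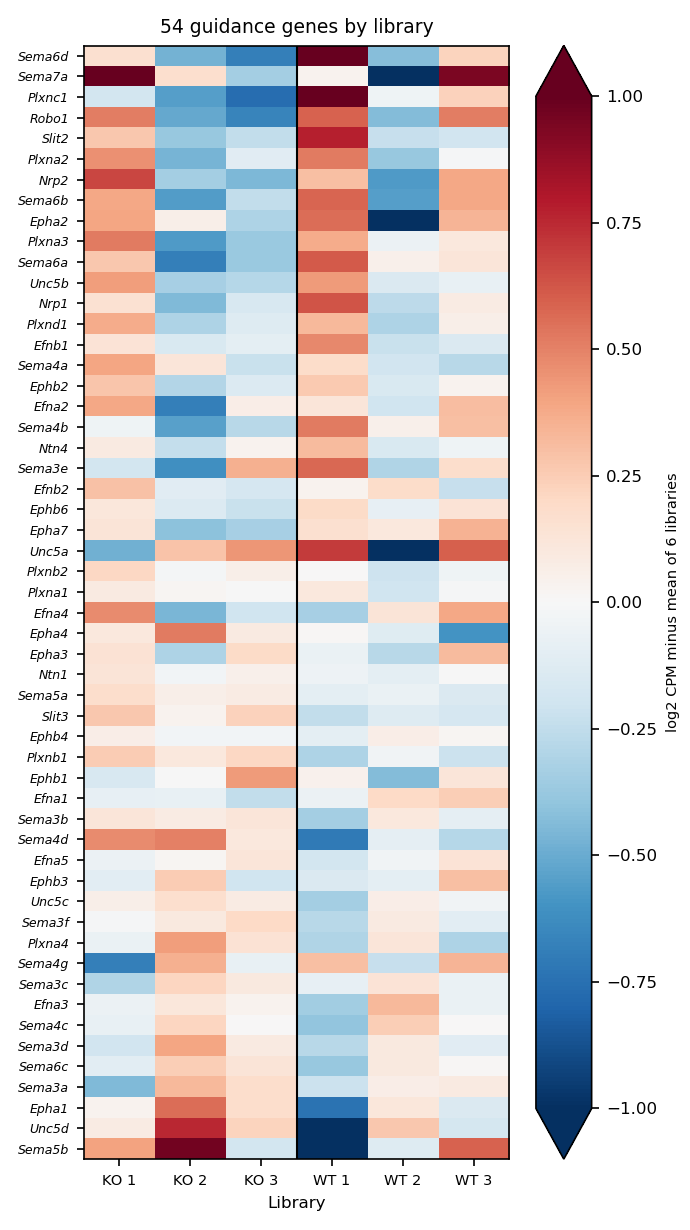
Log2 CPM of the 54 guidance genes tested in each library, minus the gene's mean over the 6 libraries, with knockout (KO) on the left and WT on the right of the line and genes sorted by their mean in knockout 1 and WT 1. Robo1, Slit2, Plxna2 and Nrp2 near the top are high in both libraries numbered 1. Of these, Robo1 and Nrp2 are also high in WT 3. Sema3a, Sema3c and Sema3d near the bottom are low in both libraries numbered 1, and Slit3, Plxnb1 and Sema5a in between separate by genotype.

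Other genes of the guidance pathway, namely co-receptors and transducers of the signal outside the 9 families, were given by a list of 60, of which 59 were in the table and 52 were tested. None passed over all genes (edgeR adjusted p of at least 0.476), 6 were higher and 1 lower at an unadjusted p under 0.05 beside the 3.95% and 2.01% of all genes, and their median log2 fold change was 0.025. Trio, an exchange factor for small GTPases downstream of netrin receptors, had 58.3, 64.1 and 62.4 CPM in the knockout and 42.3, 47.1 and 37.8 CPM in WT. Its genotypes did not overlap, its log2 fold change was 0.54 ± 0.09 (SE, edgeR adjusted p = 0.476, unadjusted p = 0.000569), and its DESeq2 adjusted p was 0.0013. The actin-oxidising enzymes Mical2 and Mical3, which act downstream of plexins, had 0.26 ± 0.09 and 0.28 ± 0.09. Srgap2, a GTPase-activating protein of the Slit and Robo pathway, had 0.23 ± 0.08, and Arhgef11, a RhoA exchange factor that binds B-type plexins, had 0.15 ± 0.05 (log2 fold change ± SE). For each of these 4 genes every knockout library lay above every WT library. Chn1, a Rac-inactivating protein downstream of EphA4, had 7.99, 8.08 and 7.90 CPM in the knockout and 9.81, 9.11 and 10.6 CPM in WT, a log2 fold change of -0.30 ± 0.10 (SE, edgeR adjusted p = 0.793, unadjusted p = 0.0180). Without knockout 3 the counts of these partners at an unadjusted p under 0.05 were 1 higher and 0 lower. Without WT 3 they were 3 higher and 0 lower. Shares of all genes were not counted for these fits.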

How the data were processed

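Before deposit the authors had turned the reads into estimated counts (expected counts) per gene, as deposited in 1 table with a column per sample. As tools the submitters' processing notes name STAR 2.6 and DESeq2, and as build mm10; per the labels' protocols total RNA went into a TruSeq kit. How reads were assigned to genes, with which annotation and strand setting, is not given in the sources used here. All lists (guidance genes, partners and markers) were chosen with earlier results of these data known.

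The counts were rounded to whole numbers, and filterByExpr kept 16654 of 22956 genes. TMM factors and edgeR 4.0.16 (quasi-likelihood F test with robust dispersion, two-sided, R 4.3.3) gave the values, with Benjamini-Hochberg adjustment over all tested genes; DESeq2 1.42.0 and limma 3.58.1 served as alternatives, beside other scalings, filters, a replicate block and left-out libraries. An exact permutation test of 3 against 3 cannot go below p = 0.1, so none was used. All 61 guidance genes were matched to GENCODE M21, 56 by position and 5 by symbol. CPM per kb used all exons of a gene, and the 3′ UTR was that of the transcript APPRIS ranks first. Replicate libraries were checked for duplicates, and none was found (mean chi-square over genes 31.4 to 111 per pair). Estimated counts can split reads between similar genes.

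Named genes were guidance genes at an unadjusted p under 0.05, the most abundant 2 per family (4 for semaphorins and Eph receptors), those without overlap, those with the longer site and up to 6 partners by p. Other genes were named after their values were seen, such as Sema3e and Sema4a for their site. The edgeR step was also run on simulated data with known fold changes, and the outcome is not used here. Figures used Python 3.11.15 and matplotlib 3.10.9.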

Additional observations from a re-analysis of the deposited data

How the results depend on the processing

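Of 38 named genes, 26 kept their sign in every one of the 14 alternative fits that gave a value for them; Plxnc1 did not pass the filter of 1 CPM in 3 samples and has no value there. Genes called over the whole table numbered 0 except 73 in DESeq2, 1 with a replicate block and 0 to 1 without single libraries, and guidance genes called numbered 0 except 1 in DESeq2. The guidance genes at an unadjusted p under 0.05, 4 higher and 3 lower, were 7 and 6 by limma-voom and 12 and 6 with the replicate block. With knockout 1 and WT 1 both left out, chosen after seeing the data, 6 were lower. Without single libraries they ranged from 3 to 10 higher and 0 to 7 lower. The partners, 6 higher and 1 lower, became 11 and 4 with the replicate block. They were 4 lower with limma-voom and 3 lower with both libraries left out. Without single libraries they were 1 to 7 higher and 0 to 3 lower. The same counts over all genes were not taken under these alternatives. Such shifts therefore cannot be read as particular to guidance genes or partners. The median log2 fold change of the guidance genes lay between -0.105 (without WT 2) and 0.081 (without WT 3) without single libraries. Guidance genes without overlap, 5 higher and 3 lower, numbered 5 to 12 and 3 to 11 without single libraries. They numbered 11 and 11 without knockout 1, 8 and 3 without knockout 2, and 12 and 8 without WT 2. With both left out they numbered 13 and 13. Fewer libraries make non-overlap more frequent in any gene. The shares of all genes without overlap were not counted under these settings, so these counts cannot be set against a background. The replicate numbers were not treated as pairs in the main fit, since the labels state no pairing. Deviations from the group mean correlated at 0.289, 0.317 and -0.026 between same-numbered libraries and at -0.351 to 0.117 between the others. Knockout 1 and knockout 2 correlated best with the WT library of the same number, and knockout 3 with WT 2 (0.117). Whether the numbers mark pairs was not tested.

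The log2 fold changes of the other 12 named genes turned sign under at least 1 alternative. Efnb2 was at -0.02 with limma-voom, -0.13 with both libraries left out and -0.15 to 0.11 without single libraries. Ephb4 was at -0.01 with upper-quartile scaling, -0.02 with limma-voom, -0.08 with both left out and -0.04 to 0.04 without single libraries, and Epha3 at -0.09 and -0.12 to 0.19. Without single libraries the ranges were -0.02 to 0.13 for Efna5, -0.19 to 0.12 for Ephb3, -0.51 to 0.14 for Nrp2, -0.18 to 0.06 for Ntn4, -0.02 to 0.14 for Plxna1, -0.08 to 0.16 for Sema3c, -0.51 to 0.12 for Slit2, -0.40 to 0.08 for Unc5b and -0.37 to 0.19 for Plxna2. The cause was not tested. Sema4d and Plxnc1 rest on few counts and have wide intervals, and how far depth sets these was not tested.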

Other observations

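Several guidance genes lie near another guidance gene on the same chromosome, and such neighbours did not always move together. Other genes that may lie between them were not considered. On chromosome 5 Sema3d, Sema3a and Sema3e are successive guidance genes, with gaps of 536 and 423 kb. Sema3a, a classical repellent of sensory axons, had 24.6, 41.8 and 37.6 CPM in the knockout and 28.6, 34.9 and 35.5 CPM in WT, lowest in knockout 1 and WT 1 like Sema3d, whereas Sema3e was highest in WT 1. On chromosome 9 Sema3b and Sema3f lie 72.3 kb apart with Plxnb1 a further 1385 kb away, and all 3 had log2 fold changes above 0 (0.20, 0.19 and 0.37). On chromosome 3 Efna1, Efna3 and Efna4 lie within 32.8 and 10.4 kb of each other with log2 fold changes of -0.27, 0.04 and -0.12, and antisense genes share 14.1% of the exon bases of Efna3 and 10.5% of those of Efna4. The 3 guidance genes on chromosome 11, which holds Mir21a, are Slit3, Ntn1 and Efnb3, at 50.9, 18.2 and 17.0 Mb from it. These genes were chosen for their position after their values were seen, and no test was made of the pattern.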
